A study of Mus musculus with 15 samples.

Results

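Vwf, Selp, Itga2b and Itgb3 are genes of the platelet lineage whose transcripts also mark the platelet-biased fraction of haematopoietic stem cells (HSCs). They were taken by gene symbol from a table of 20696 genes measured in HSCs of mouse bone marrow, so the members are 4 of 20696 genes. All 4 passed the filter on low values, a mean of at least 1 FPKM (a level scaled to exon length and sequencing depth), which left 11345 genes to test.

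As background, von Willebrand factor, the product of Vwf, is a large multimeric glycoprotein stored in the alpha granules of platelets and in endothelial cells, and it tethers platelets to exposed collagen. P-selectin, the product of Selp, lies in the membrane of the same granules and binds leukocytes once it reaches the surface. Itga2b and Itgb3 encode the alpha IIb and beta 3 chains (CD41 and CD61) of the platelet receptor for fibrinogen, which also binds von Willebrand factor. In mouse bone marrow, HSCs that express Vwf are known for an output tilted towards platelets, and such cells are known to become more frequent with age.

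The study asked how transcription in HSCs changes with age and in aged mice that lack Thbs1. The labels give 3 groups of 5 libraries, all from HSCs sorted from bone marrow: control mice of 3 months (young controls), control mice of 18 months (aged controls) and Thbs1 knockout mice of 18 months. The sources used here give neither the strain, nor the form of the Thbs1 allele, nor the surface markers of the sort. Whether each library stands for its own animal is not said in the labels, so every p-value below measures the spread between these libraries, which may be partly technical.

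Thbs1 (ENSMUSG00000040152, GRCm38 chr2:118111876-118127133) encodes thrombospondin 1, a secreted matrix glycoprotein, and it was examined first because the knockout label names it. Its levels in young controls 1 to 5 were 0.76, 0.70, 13.38, 2.42 and 3.95 FPKM. In aged controls 1 to 5 they were 0.20, 0.01, 0.62, 8.75 and 4.90 FPKM. In the libraries labelled aged Thbs1 knockout they were 2.53, 1.69, 17.89, 12.69 and 17.25 FPKM. The levels under the knockout label were thus not the low ones, and 3 of the 5 libraries, those named female, lay above every aged control. In each group every library named male lay below every library named female. Within each sex every knockout-label library lay above every aged control, a split that was looked at after the values were seen. The difference between the label and the aged controls was 1.73 on the scale of log2(FPKM + 1) with a standard error of 0.71, and it missed the threshold (adjusted p = 0.302 in limma, p = 0.111 in a two-sided exact permutation test). The sources used here do not say which part of the gene was removed, and a level per gene counts all of its exons. This transcript was thus not lower under the label, but such a level cannot tell whether the label holds. For this reason the group is called the libraries labelled aged Thbs1 knockout, or the knockout label for short. Every direction given for it below rests on that label.

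Some properties of the libraries touch the results. Each library held about 16650000 to 28620000 reads in genes, as read from the steps between low FPKM values. Knockout-label libraries 2 and 5 had 2.155% and 0.682% of their reads in genes annotated as ribosomal RNA, against 0.157% to 0.37% in the other libraries. The table carries a library name and a sample title over each column, and the descriptions attached to the samples would place 10 of the 15 columns elsewhere. Columns were assigned by title, and the results rest on this. Grouped by the descriptions, the log2(FPKM + 1) differences between aged and young controls were -0.84 for Vwf, -0.79 for Selp, -0.93 for Itga2b and -0.85 for Itgb3, those between the knockout label and the aged controls were 0.66, 1.51, -0.04 and 1.06, and none of these passed the test. The library names also give a sex: 2 of the 5 young controls, 3 of the 5 aged controls and 2 of the 5 knockout-label libraries were male. All 17 defining markers of HSCs that were examined, among them Procr, Hlf, Fgd5, Mecom and Slamf1, were detected, with summed levels of 739.06 to 793.11 FPKM (young controls), 945.69 to 1156.19 FPKM (aged controls) and 719.3 to 961.09 FPKM (knockout label). Among the 17, Cd48, Flt3 and Cd34 define HSCs by a low level. The sums thus mix markers of both kinds. Of these markers 4 were called higher in aged than in young controls (Procr, Ly6a, Hoxb5 and Pdzk1ip1) and 2 lower. The 2 lower ones were Flt3 (mean 9.51 to 2.35 FPKM, limma adjusted p = 0.00043) and Cd34 (48.72 to 23.08 FPKM, limma adjusted p = 0.0012). Under the knockout label 1 marker was called lower than in aged controls. That one was Ly6a, which encodes the surface protein Sca-1, with means of 154.9, 283.9 and 136.7 FPKM over the 3 groups (aged minus young 0.88, limma adjusted p = 0.013, and knockout label minus aged -1.12, limma adjusted p = 0.00432). Whether Sca-1 was used in this sort is not given in the sources used here. The part of these markers in the results was not tested.

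The first comparison was of aged with young controls, and all 4 genes were higher in the aged controls. Selp rose most, 6-fold as a ratio of mean FPKM, followed by Itgb3 (3.76-fold), Vwf (3.69-fold) and Itga2b (2.15-fold). All 4 passed the test over all genes (limma adjusted p under 0.05), where 3.18% of the 11345 genes tested were called higher. For 3 of the 4, all except Itga2b, every aged control lay above every young control, which held for 4.57% of the genes tested. The second comparison was of the knockout label with the aged controls, and here all 4 were lower, Itga2b most (3.53-fold), then Selp (2.46-fold), Vwf (2.2-fold) and Itgb3 (1.93-fold). All 4 passed the test, where 1.19% of genes were called lower, and in all 4 every knockout-label library lay below every aged control, which held for 1.6% of genes. Both comparisons use the same 5 aged controls, so their opposite signs are not independent of each other.

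**Figure D1:**
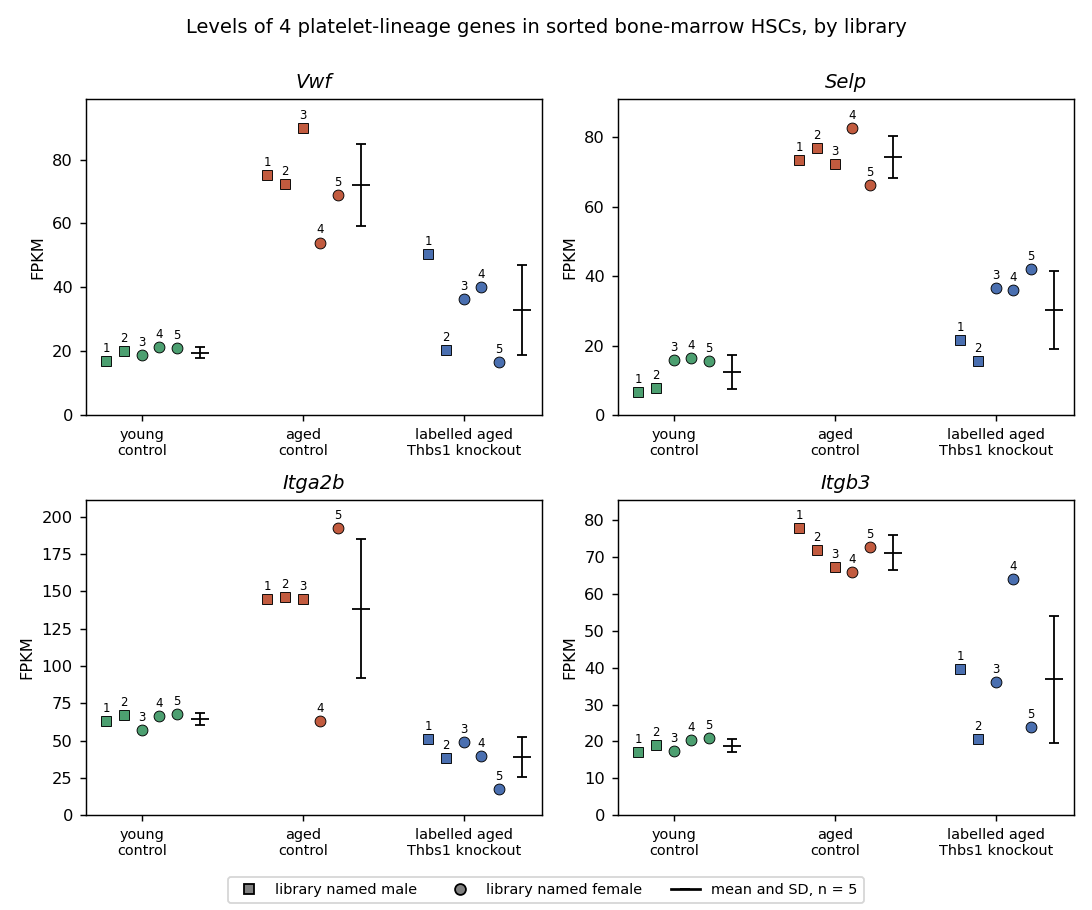
FPKM of Vwf, Selp, Itga2b and Itgb3 in each of the 15 libraries (numbered points, squares for libraries named male and circles for female), with the mean and SD of each group of 5 beside them. The aged controls stand above both other groups in every panel except for aged control 4 in the panel of Itga2b, which lies at 63.43 FPKM among the young controls.

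Vwf (ENSMUSG00000001930) lies on GRCm38 at chr6:125546774-125686679 on the forward strand, with 16064 exonic bases in 56 exons after merging of transcripts. Its levels in young controls 1 to 5 were 16.99, 19.91, 18.76, 21.24 and 20.87 FPKM. In aged controls 1 to 5 they were 75.08, 72.29, 89.92, 54.02 and 69.03 FPKM. In knockout-label libraries 1 to 5 they were 50.47, 20.26, 36.38, 40.01 and 16.62 FPKM. The aged controls formed the top group with no overlap, and knockout-label libraries 2 and 5 were near or below the young controls while the other 3 lay between the groups. Group means were 19.55 ± 1.73, 72.07 ± 12.9 and 32.75 ± 14.1 FPKM (SD, n = 5 each).

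Vwf differed between aged and young controls by 1.82 on the log2(FPKM + 1) scale (95% interval 1.33 to 2.3, limma adjusted p = 9.03e-05), higher in 5 of 5 aged controls. Between the knockout label and the aged controls it differed by -1.21 (interval -1.7 to -0.72, limma adjusted p = 0.00888), lower in 5 of 5 libraries. The exact two-sided permutation p was 0.00794 for each, the smallest that 5 libraries against 5 allow. With only the 2 groups compared in the fit, the second difference had a limma adjusted p of 0.0598. Against the young controls, 3 knockout-label libraries lay above, 1 within and 1 below their range, and the difference of 0.61 did not pass the test (interval 0.12 to 1.09, limma adjusted p = 0.162, exact permutation p = 0.135). Libraries 2 and 5, those with the most ribosomal RNA, were the lowest 2 of the group for Vwf, and also for Itga2b and Itgb3. For Selp, library 2 was the lowest of the group and library 5 the highest. The part of libraries 2 and 5 in the results was not tested beyond leaving them out. Without them the difference in Vwf from the aged controls was -0.75 (limma adjusted p = 0.0151) and that from the young controls 1.07 (limma adjusted p = 0.00201).

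Selp (ENSMUSG00000026580) lies at chr1:164115264-164150026 on the forward strand, with 4413 exonic bases in 17 merged exons. Of these, 4.21% are shared with the antisense gene Gm16587 and 9.93% with the long noncoding gene Gm16548, both on the opposite strand. Since the sources used here give no strand setting for the counting, reads of these stretches cannot be told apart. The means of Gm16587 in young controls, aged controls and the knockout label were 0.362, 1.58 and 0.39 FPKM, highest in aged controls as for Selp. Those of Gm16548 were at most 0.362 FPKM. These levels come from the same counting, so they do not bound the effect of the overlap. Promoter windows were found for only 2 of the 4 genes, Selp and Itga2b, and both windows are shown for that reason. They run from 250 bases before to 50 bases after the RefSeq start (GRCm38.p6), Selp at chr1:164115014-164115313 on the forward strand and Itga2b at chr11:102469834-102470133 on the reverse strand, 5′ to 3′, and capitals mark GGAAG or its reverse complement CTTCC (a short ETS-type motif) and TGTGG (a short RUNX-type motif).
Selp promoter: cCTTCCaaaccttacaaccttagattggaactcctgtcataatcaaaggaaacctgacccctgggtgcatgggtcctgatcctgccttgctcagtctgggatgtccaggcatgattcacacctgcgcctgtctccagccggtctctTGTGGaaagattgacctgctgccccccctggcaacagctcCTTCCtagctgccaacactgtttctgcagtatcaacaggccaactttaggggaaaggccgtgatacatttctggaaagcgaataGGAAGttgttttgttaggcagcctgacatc
Itga2b promoter: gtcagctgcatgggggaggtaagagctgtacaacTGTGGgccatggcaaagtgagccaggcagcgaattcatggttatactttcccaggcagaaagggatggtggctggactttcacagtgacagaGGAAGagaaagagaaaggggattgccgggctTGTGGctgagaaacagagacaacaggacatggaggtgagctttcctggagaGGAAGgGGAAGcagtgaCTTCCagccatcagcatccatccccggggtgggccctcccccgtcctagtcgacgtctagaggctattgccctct

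Both windows were searched on both strands for motifs of 3 families of factors known from megakaryocyte genes and for the TATA box. Positions are in bases from the RefSeq start, negative before it. For Selp the GENCODE gene model begins at that start. The GENCODE model of Itga2b (chr11:102453297-102470122, reverse strand) begins further upstream, so most of the Itga2b window lies inside it. Motifs were searched around the RefSeq start only. GGAAG began at -249, -64 and 20 in the window of Selp, the first 2 of these as CTTCC, and at -124, -42, -36 and, as CTTCC, -25 in that of Itga2b. TGTGG began at -104 in the window of Selp and at -216 and -93 in that of Itga2b. These short motifs are common, with GGAAG in 71.4% and TGTGG in 55.9% of 32851 RefSeq windows of the same length. The GATA-type motifs AGATAA and GATAA (11.2% and 25.4% of windows), the longer forms CCGGAAG (8.9%, holding GGAAG) and TGTGGT (16.8%, holding TGTGG), and TATAAA (13.6%) were in neither window. The window of Selp had 51.7% G and C, that of Itga2b 56.0%.

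Selp stood at 6.52, 7.71, 15.78, 16.39 and 15.59 FPKM in young controls 1 to 5. It stood at 73.60, 77.07, 72.37, 82.73 and 66.34 FPKM in aged controls 1 to 5, and at 21.50, 15.58, 36.50, 35.93 and 42.05 FPKM in knockout-label libraries 1 to 5. The aged controls were a tight top group, and the young controls and the knockout label each split into 2 lower and 3 higher libraries. The means were 12.4 ± 4.85 FPKM in young controls, 74.42 ± 6.05 in aged controls and 30.31 ± 11.2 under the knockout label (SD, n = 5 each).

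The difference in Selp between aged and young controls was 2.58 on the log2(FPKM + 1) scale (interval 2.02 to 3.13, limma adjusted p = 9.77e-06, exact permutation p = 0.00794), higher in 5 of 5. Between the knockout label and the aged controls it was -1.35 (interval -1.91 to -0.8, limma adjusted p = 0.0102, exact permutation p = 0.00794), lower in 5 of 5. Selp was also the one member called between the knockout label and the young controls, 2.44-fold higher with a difference of 1.23 (interval 0.67 to 1.78, limma adjusted p = 0.0228, exact permutation p = 0.0317). In that comparison 4 knockout-label libraries lay above all young controls and library 2 within their range. Selp in library 5, unlike Vwf, was the highest of its group, and leaving out this library, young control 1 or young control 2 took the call away (limma adjusted p = 0.0607, 0.0745 and 0.0678). So did a fit of only these 2 groups (0.0683) and a test without the filter on low values (0.0511). Without libraries 2 and 5 together, Selp differed by -1.26 from the aged controls (limma adjusted p = 0.0212) and by 1.32 from the young controls (0.0221).

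The 2 lower libraries of Selp in the young controls and under the knockout label were the male ones. In a fit with sex within each group, female libraries were higher by 1.06 on the log2(FPKM + 1) scale in young controls (limma adjusted p = 0.0421, 1 of 3 genes called) and by 1.02 under the knockout label (adjusted p = 0.00936, 1 of 457 called). In aged controls the difference between female and male libraries was -0.0044 (adjusted p = 0.99, where 540 genes were called), with means of 74.53 and 74.35 FPKM. The comparison by sex was chosen after the values were seen, and the sexes were unequal in number between groups. The test of whether the sex difference itself differed between aged and young controls called 0 genes with limma, and 998 had an unadjusted p under 0.05. Selp was among these with a limma adjusted p of 0.392. For the knockout label against the aged controls 0 genes were called, 377 had an unadjusted p under 0.05, and the adjusted p of Selp was 0.442. Within each sex both comparisons with aged controls had the same direction for all 4 genes. For Selp, aged controls minus young controls was 3.22 in males and 2.15 in females, and knockout label minus aged controls was -1.96 and -0.94. Vwf, Itga2b and Itgb3 did not pass the test of female against male libraries over the 3 groups (limma adjusted p = 0.687, 0.384 and 0.587), where Selp did (0.69, adjusted p = 0.0113) as 1 of 1468 genes called.

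Itga2b (ENSMUSG00000034664) lies at chr11:102453297-102470122 on the reverse strand, with 5454 exonic bases in 28 merged exons. It was at 63.29, 67.48, 57.44, 66.19 and 67.59 FPKM in young controls 1 to 5. In aged controls 1 to 5 it was at 144.86, 146.42, 144.52, 63.43 and 192.13 FPKM, and in knockout-label libraries 1 to 5 at 50.95, 38.26, 49.11, 39.68 and 17.61 FPKM. Of the aged controls 4 lay above all young controls and aged control 4 lay within their range, while all 5 knockout-label libraries lay below both other groups. The means were 64.4 ± 4.26, 138.3 ± 46.5 and 39.12 ± 13.3 FPKM (SD, n = 5 each).

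Between aged and young controls Itga2b differed by 1.01 on the log2(FPKM + 1) scale (interval 0.44 to 1.57, limma adjusted p = 0.0381, exact permutation p = 0.0317). This call was the least stable of the 4: leaving out any 1 of the 10 libraries other than aged control 4 ended it, with differences of 0.87 to 1.03. Without aged control 4 the difference was 1.26 (limma adjusted p = 0.00254). Between the knockout label and the aged controls Itga2b differed by -1.80 (interval -2.36 to -1.23, limma adjusted p = 0.00101, exact permutation p = 0.00794), lower in 5 of 5. Against the young controls it was 1.65-fold lower under the knockout label, by a difference of -0.79 that did not pass the test over all genes (interval -1.35 to -0.22, limma adjusted p = 0.13). The groups did not overlap there, and the exact permutation p for this gene alone was 0.00794. Without knockout-label libraries 2 and 5 the difference from the aged controls was -1.47 (limma adjusted p = 0.00432) and that from the young controls -0.46 (0.582).

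Itgb3 (ENSMUSG00000020689) lies 2.1 Mb from Itga2b at chr11:104608000-104670476 on the forward strand, with 5901 exonic bases in 16 merged exons. Its levels in young controls 1 to 5 were 17.20, 18.93, 17.30, 20.28 and 20.81 FPKM. In aged controls 1 to 5 they were 77.70, 71.82, 67.31, 65.90 and 72.75 FPKM, and in knockout-label libraries 1 to 5 they were 39.53, 20.70, 36.06, 64.03 and 23.80 FPKM. The young and aged controls were both narrow, and the knockout label spread over most of the gap between them, from library 2 among the young controls to library 4 just under the lowest aged control. The means were 18.9 ± 1.66, 71.1 ± 4.70 and 36.82 ± 17.2 FPKM (SD, n = 5 each).

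For Itgb3, aged and young controls differed by 1.86 on the log2(FPKM + 1) scale (interval 1.41 to 2.3, limma adjusted p = 2.59e-05, exact permutation p = 0.00794), higher in 5 of 5. The knockout label and the aged controls differed by -1.04 (interval -1.48 to -0.6, limma adjusted p = 0.0139, exact permutation p = 0.00794), lower in 5 of 5. Without aged control 1 the limma adjusted p was 0.0502, and with only these 2 groups in the fit 0.0867. Against the young controls 4 knockout-label libraries lay above and 1 within their range, a difference of 0.82 (interval 0.37 to 1.26) that missed the threshold (limma adjusted p = 0.059, exact permutation p = 0.0159). Leaving out knockout-label library 2, 4 or 5 brought this under the threshold (limma adjusted p = 0.0146, 0.0443 and 0.0326). Without libraries 2 and 5 together, Itgb3 differed by -0.64 from the aged controls (limma adjusted p = 0.0438) and by 1.21 from the young controls (limma adjusted p = 0.000645).

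Across the 4 genes, the third comparison, of the knockout label with the young controls, thus did not give 1 direction. Selp was called higher, where 1.01% of genes tested were, and none was called lower, where 0.617% were. Vwf and Itgb3 had differences above 0 and Itga2b a difference below 0, and these 3 did not pass. Itga2b was the member whose groups did not overlap, in the lower direction, which held for 2.32% of genes, and no member was higher without overlap, which held for 2.18%. In these bulk samples, fewer cells that express a gene and less RNA per cell cannot be told apart.

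**Figure D2:**
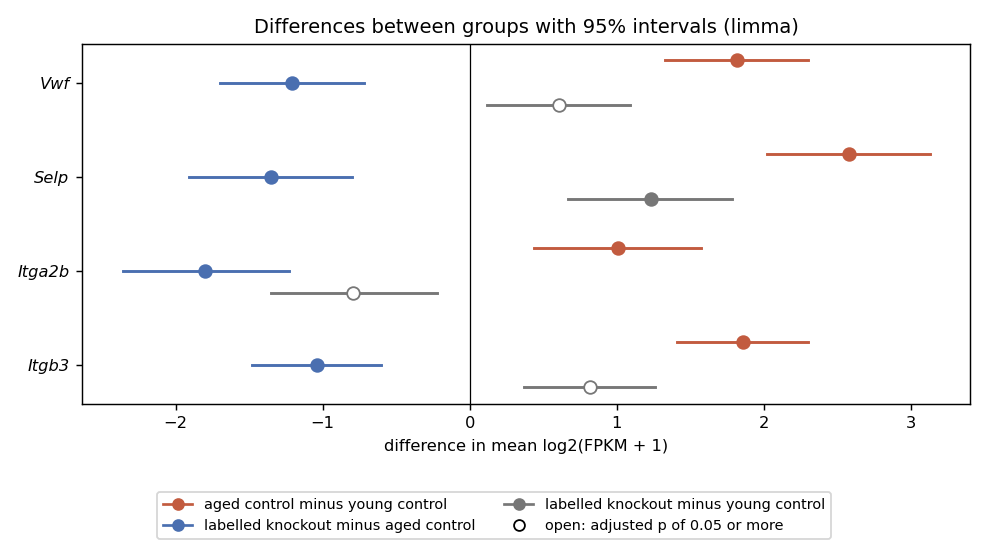
Differences in mean log2(FPKM + 1) between groups for each gene, with 95% intervals from limma; filled points passed an adjusted p of 0.05 and open points did not. Aged minus young controls lies to the right of 0 and knockout label minus aged controls to the left for all 4 genes, while knockout label minus young controls lies to the right for Vwf, Selp and Itgb3 and to the left for Itga2b.

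FPKM is per length, and in genes of at most 500 nucleotides low values matched whole reads over the merged exon length. That length can exceed the length of the transcripts present, to a degree that may differ between genes. The ranks that follow are thus of FPKM and need not be ranks of transcript number. In young controls Itga2b was highest, above the mean of 92% of the genes tested, Vwf and Itgb3 came next without differing beyond their spread, and Selp was lowest. In aged controls Itga2b had the highest mean again, and Selp, Vwf and Itgb3 lay within 71.1 to 74.42 FPKM, not apart beyond their spread. Under the knockout label all 4 means lay between 30.31 and 39.12 FPKM, again within their spread. The spread itself also changed place: the coefficient of variation of Itgb3 was 8.77% in young controls, 6.6% in aged controls and 46.6% under the knockout label, that of Vwf 8.82%, 17.9% and 43.1%, that of Itga2b 6.61%, 33.6% and 33.9%, and that of Selp 39.1%, 8.12% and 37%. The depth behind these values ran from 534 reads for Selp in young control 1 to 29115 reads for Vwf in aged control 2, which gives a counting error (1 divided by the square root of the reads, which leaves out amplification) of at most 4.33% of a value.

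Because Itga2b and Itgb3 encode the 2 chains of 1 receptor, the ratio of their FPKM was compared between groups. In young controls 1 to 5 it was 3.68, 3.56, 3.32, 3.26 and 3.25, in aged controls 1.86, 2.04, 2.15, 0.963 and 2.64, and in knockout-label libraries 1.29, 1.85, 1.36, 0.62 and 0.74. All aged controls and all knockout-label libraries lay below all young controls. The FPKM of Itgb3 exceeded that of Itga2b in aged control 4 and in knockout-label libraries 4 and 5. Equal FPKM of the 2 genes need not mean equal numbers of transcripts, so the ratio is read between libraries. The mean ratio was 3.41 ± 0.195 in young controls, 1.93 ± 0.613 in aged controls and 1.17 ± 0.5 under the knockout label (SD, n = 5 each).

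The log2 ratio, taken from FPKM + 1, was lower by 0.85 in aged than in young controls (difference -0.85, exact two-sided permutation p = 0.00794), in 5 of 5. It was lower under the knockout label than in young controls by 1.61 (difference -1.61, exact permutation p = 0.00794), again in 5 of 5. Between the knockout label and the aged controls the difference of -0.76 did not pass (exact permutation p = 0.0794). Leaving out knockout-label library 2 or aged control 4 brought that p to 0.0397 or 0.0159. Without libraries 2 and 5 of the knockout label it was 0.107. The protein chains were not measured.

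**Figure D3:**
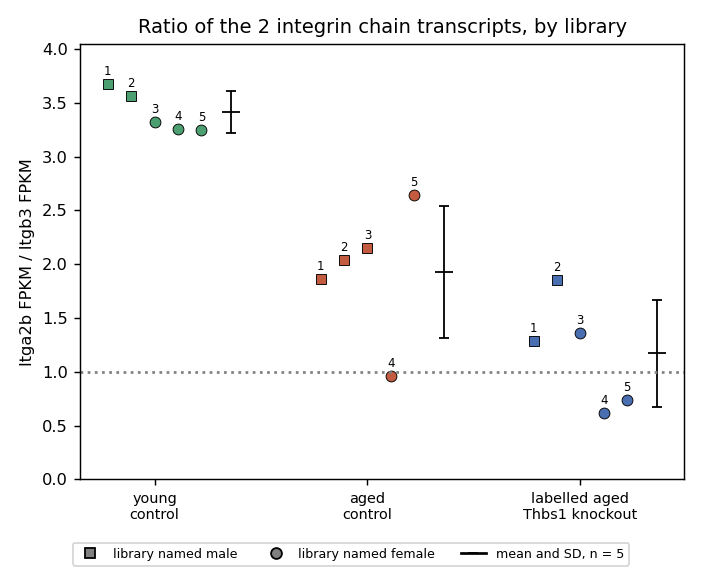
Ratio of Itga2b to Itgb3 FPKM in each library (numbered points, squares male and circles female), with the mean and SD of each group of 5. The dotted line marks equal FPKM, which need not be equal numbers of transcripts. The young controls sit between 3.25 and 3.68, above all libraries of both aged groups, and aged control 4 and knockout-label libraries 4 and 5 lie below the line.

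The likeness of the 4 genes over the 15 libraries was described by Pearson's r of log2(FPKM + 1), which is shaped by the group differences above and carries no test. Vwf and Itgb3 were most alike (r = 0.95), and none of the other genes tested had a higher r with Vwf. Selp followed Itgb3 (r = 0.89) and Vwf (r = 0.82), and Itga2b was the odd member, with r = 0.71 to Vwf, 0.56 to Itgb3 and 0.40 to Selp. When each value was taken as a deviation from its group mean, Vwf kept an r of 0.75 with Itgb3 and 0.72 with Itga2b, Itga2b and Itgb3 had 0.40, and Selp had 0.31 with Itgb3, 0.03 with Vwf and -0.31 with Itga2b. Libraries share depth and composition across genes, and 972 of the genes tested had a higher r of deviations with Vwf than Itgb3 did.

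Outside the 4, the genes most like Vwf over the 15 libraries were Reep2 (r = 0.939), Exoc3l2 (0.933), Lama5 (0.93), Uba7 (0.924) and Exoc3l4 (0.922). Mean levels of Reep2 were 11.6 FPKM in young controls, 27.7 in aged controls and 16.2 under the knockout label. Most like Itgb3 were Ehd3 (0.952), Ampd3 (0.951), Tgm2 (0.941), Col16a1 (0.929) and Tent5c (0.927). Ehd3, which encodes a protein of endosomal transport, went from 17.3 to 75.3 and 28.1 FPKM in the same order of groups, close to the levels of Itgb3 itself. Most like Selp were Pde9a (0.95), Cd38 (0.936), Klrb1c (0.933), Wwtr1 (0.933) and Ripk4 (0.931), and mean Cd38, an ectoenzyme at the cell surface, was 5.94, 19.1 and 11.2 FPKM. Most like Itga2b were Xpnpep1 (0.94), Cpne2 (0.932), Rpn1 (0.926), Micall2 (0.922) and Ptgs1 (0.911), and mean Xpnpep1 was 16.7, 19.4 and 12.99 FPKM, a narrower range than that of Itga2b. The 4 lists of 5 share no gene.

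By deviations from group means the lists were different ones. They held Mov10 (r = 0.981), Akt1 (0.974) and Vars (0.971) for Vwf, Col1a2 (0.871) and Fam118a (0.87) for Selp, and Mapk7 (0.934) and Timm29 (0.931) for Itgb3. For Itga2b they held Xpnpep1 (0.939) again, followed by Pkmyt1 (0.933), Map4k1 (0.931), Pola2 (0.93) and Cdc20 (0.929), of which Pola2 and Cdc20 act in DNA replication and in mitosis.

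Other genes of the same pathway were looked at in 7 lists with 141 genes, of which 134 were in the table. The receptor on platelets that binds von Willebrand factor is the glycoprotein Ib-IX-V complex, and all of its 4 genes were tested. Gp1bb, the beta chain of glycoprotein Ib, rose in aged controls from a mean of 13.07 to 31.5 FPKM (difference 1.09, limma adjusted p = 0.0179) and fell under the knockout label to 12.42 (difference -1.19, limma adjusted p = 0.0222). Gp5, Gp9 and Gp1ba did not pass either test, with means over the 3 groups of 31.48, 36.43 and 18.09 FPKM for Gp5, 76.24, 107.3 and 78.11 for Gp9 and 5.34, 6.13 and 4.51 for Gp1ba. The median of the 4 was 0.32 for aged against young controls and -0.7 for the knockout label against aged controls, beside -0.02 and -0.03 over all genes tested. For the lists that follow, the shares of all genes tested with an unadjusted p under 0.05 were 9.98% higher and 9.98% lower in aged than in young controls, and 4.64% higher and 8.31% lower under the knockout label than in aged controls.

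Granule proteins, their release and the clearance of von Willebrand factor made a list of 22, of which 18 were tested. Cd63, a membrane protein of lysosomes and granules, was the member called higher in aged controls (138.6 to 228.9 FPKM, difference 0.71, limma adjusted p = 0.0489), and none was called lower. Under the knockout label 2 were called lower than in aged controls and none higher. Rab27a, a GTPase of granule release, went from 23.46 to 14.17 FPKM (difference -0.70, limma adjusted p = 0.0312). Snap23, a SNARE protein of granule fusion, went from 13.06 to 6.24 FPKM (difference -0.88, limma adjusted p = 0.0495), and it was also lower than in young controls (difference -0.99, limma adjusted p = 0.0255). The medians of the list were 0.01 and -0.24.

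Selectins and the enzymes and carriers of their ligands made a list of 15, of which 14 were tested. Chst2, a sulfotransferase that modifies selectin ligands, was higher in aged than in young controls (2.23 to 4.87 FPKM, difference 0.84, limma adjusted p = 0.00876) and was also called higher under the knockout label than in young controls (difference 0.82, limma adjusted p = 0.0233). Between the knockout label and the aged controls 0 of the 14 were called by limma, and 4 had an unadjusted p under 0.05, all lower. Selplg, the ligand that P-selectin binds on leukocytes, had means of 57.09, 61.18 and 44.38 FPKM in young controls, aged controls and the knockout label and did not pass in any comparison. The medians were -0.13 and -0.14 for the comparisons with aged controls.

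Genes that activate alpha IIb beta 3 or signal from it made a list of 28, and 0 of the 23 tested were called by limma in any of the 3 comparisons. At an unadjusted p under 0.05 there were 2 higher and 3 lower in aged than in young controls, and 4 lower under the knockout label than in aged controls. Among them Fermt3, which encodes the integrin activator kindlin-3, had means of 312.8, 340.7 and 257.2 FPKM in young controls, aged controls and the knockout label. Tln1, for the integrin activator talin 1, had 102.7, 101.1 and 85.66 FPKM. Itgav, the other alpha chain that pairs with the product of Itgb3, was low throughout at 1.67, 1.05 and 1.12 FPKM, so that Itga2b exceeded it in every group. The medians of the list were -0.07 and -0.24.

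Among 12 tested surface genes of platelets and megakaryocytes outside these lists, 2 were called higher in aged controls and none lower. Tbxa2r, the thromboxane receptor, went from 32.09 to 61.39 FPKM (difference 0.87, limma adjusted p = 0.0211), and Esam, an adhesion molecule that also marks HSCs and endothelial cells, from 86.96 to 128.0 FPKM (difference 0.54, limma adjusted p = 0.0193). Under the knockout label they stood at 36.09 and 98.43 FPKM, and 0 of the 12 were called by limma against the aged controls, where 4 were lower at an unadjusted p under 0.05. The medians were 0.26 and -0.35.

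Stored and cytoskeletal genes made a list of 25, of which 18 were tested, with calls in both directions. Clu, which encodes the granule protein clusterin, went from 17.98 FPKM in young controls to 134.4 in aged controls (difference 2.82, limma adjusted p = 1.16e-08) and 56.36 under the knockout label (difference from aged controls -1.25, limma adjusted p = 0.000281), an order like that of Selp. Ppbp, the platelet chemokine also called CXCL7, went the other way with age, from 17.98 to 6.15 FPKM (difference -1.49, limma adjusted p = 0.0117), and stood at 3.97 FPKM under the knockout label. Ptgs1, the cyclooxygenase of platelets, was called lower under the knockout label than in aged controls (55.37 to 38.61 FPKM, difference -0.51, limma adjusted p = 0.0267). The medians were 0.15 and -0.21.

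Transcription factors and other regulators of the megakaryocyte programme made a list of 28, and 0 of the 27 tested were called by limma in any comparison. At an unadjusted p under 0.05 there were 5 higher and 3 lower in aged than in young controls, and 1 higher and 5 lower under the knockout label than in aged controls. Gata1 had means of 22.5, 24.4 and 13.1 FPKM in young controls, aged controls and the knockout label, Nfe2 286.1, 365.7 and 272.2, and Gfi1b 108.1, 152.0 and 108.5. The medians were -0.02 and -0.17. Of the 116 genes tested in the 7 lists, 6 were called higher (5.17%, beside 3.18% of all genes tested) and 1 lower (0.862%, beside 1.23%) in aged than in young controls. Under the knockout label 5 were called lower (4.31%, beside 1.19%) and 0 higher than in aged controls (0.361% of all genes), and 2 higher and 2 lower than in young controls (1.72% each, beside 1.01% and 0.617%). The lists were chosen with earlier results of these data known, so these shares are a description and not an independent comparison.

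**Figure D4:**
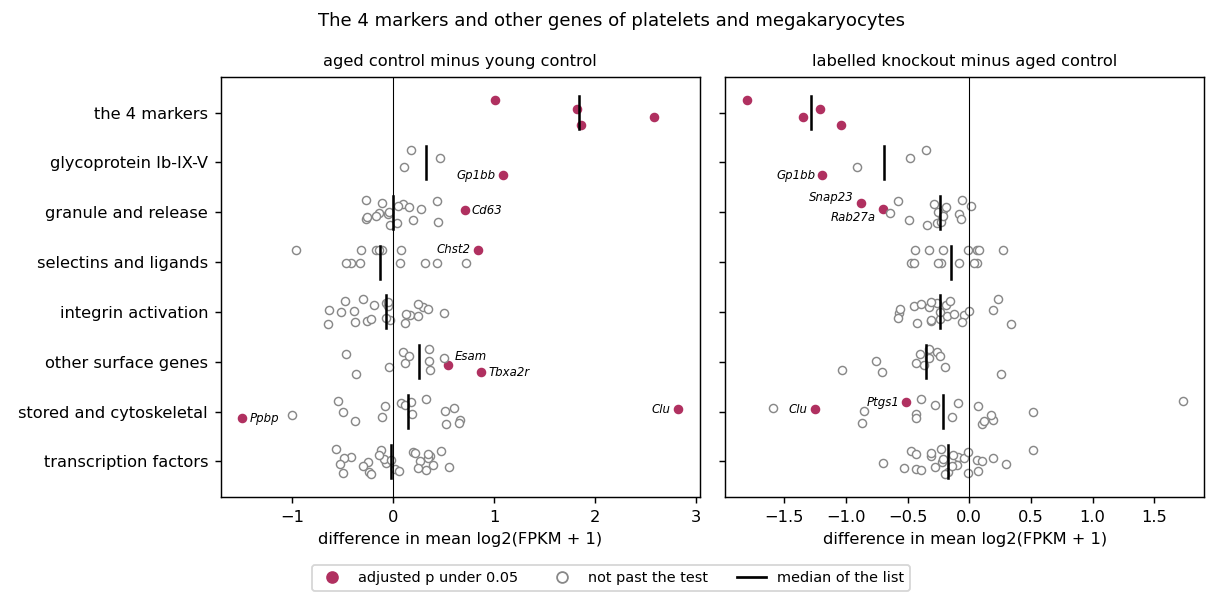
Differences in mean log2(FPKM + 1) of the 4 markers and of the tested genes of 7 pathway lists, for aged minus young controls (left) and knockout label minus aged controls (right); filled points passed an adjusted p of 0.05 in limma, and black bars are medians. The 4 markers lie apart from 0 in both panels, while most points of the lists are open, and their medians run from -0.13 to 0.32 (left) and from -0.7 to -0.14 (right); vertical position within a list has no meaning.

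Vwf and Selp are also genes of endothelial cells, and all 4 are strongly expressed in megakaryocytes, so markers of other cells were read in the same libraries. Of 18 endothelial markers 17 were in the table and 6 stayed under 1 FPKM in every library. Cdh5, the defining cadherin of that lineage, did not exceed 0.19 FPKM in any library. The list summed to between 232.7 and 272.37 FPKM in the young controls, between 283.19 and 459.8 in the aged controls and between 267.08 and 385.85 under the knockout label. By group mean the largest parts were from Eng, Tie1 and Icam2, which HSCs also express. Of the 11 tested, 4 were called higher in aged than in young controls (median 0.46), 1 lower under the knockout label than in aged controls (median -0.36), and 3 higher under the knockout label than in young controls. Cldn5, a claudin of endothelial junctions, was called in all 3, with means of 2.96, 64.64 and 18.61 FPKM (aged minus young 3.81, limma adjusted p = 3.23e-06, and knockout label minus aged -1.58, limma adjusted p = 0.0288). In aged controls 1 to 5 Cldn5 was at 86.32, 95.29, 89.61, 32.38 and 19.61 FPKM, and thus a large part of the sum in the first 3. Ramp2, a receptor partner protein, had means of 2.90, 24.14 and 20.20 FPKM and Sox18, a transcription factor, 10.37, 18.91 and 24.64 FPKM, both called higher in each aged group than in young controls. Icam2, an adhesion molecule, was called higher with age (53.82 to 74.72 FPKM, limma adjusted p = 0.0476) and stood at 53.68 FPKM under the knockout label.

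Of 14 markers of mature megakaryocytes and platelets, 4 fell below the filter: Gp6, the collagen receptor of platelets, with group means of 0.04, 0.00 and 0.04 FPKM, and Clec1b, Itga2 and Mpig6b. The list summed to between 360.83 and 507.02 FPKM in the young controls, between 267.41 and 1872.5 in the aged controls and between 174.47 and 379.98 under the knockout label. Of the 10 tested, 1 was called lower (Ppbp) and 0 higher in aged than in young controls (median 0.25). Between the knockout label and the aged controls limma called 0, with 5 lower at an unadjusted p under 0.05, 8 of 10 below 0 and a median of -0.46. Most of the range in aged controls came from aged control 5, where Pf4 was at 1579.13 FPKM, and this was also the library with the highest Itga2b (192.13 FPKM). Aged control 4, with the lowest Itga2b of its group, was also the lowest for Pf4 (126.3 FPKM), Ppbp (2.3), Gp1bb (14.29), Gp5 (15.74) and Gp9 (71.42). Erythroid markers summed to between 93.81 and 196.22 FPKM in the young controls, between 81.03 and 399.43 in the aged controls and between 55.16 and 258.34 under the knockout label, and 0 of the 8 tested were called by limma in either comparison with aged controls (1 and 2 at an unadjusted p under 0.05). Markers of T and NK cells summed to between 53.83 and 104.77 FPKM in the young controls, between 67.24 and 134.63 in the aged controls and between 29.28 and 61.66 under the knockout label. Of 2 tested, Klrb1c was called higher with age (2.66 to 17.81 FPKM, limma adjusted p = 8.69e-05) and lower under the knockout label (6.88 FPKM, limma adjusted p = 0.0207). The other, Nkg7, was not called and had the highest means of the list, 70.27, 86.26 and 43.8 FPKM over the 3 groups. Cd3d, Cd3g, Cd4 and Ncr1 did not exceed 0.34, 0.36, 1.04 and 1.2 FPKM in any library. The part of these markers in the results on the 4 genes was not tested. Without aged control 5 the differences from young controls kept their direction for all 4 genes, and the call was lost for Itga2b only (0.87, limma adjusted p = 0.0592).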

How the data were processed

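SMART-Seq v4 libraries were made from 2 ng of RNA of sorted HSCs, per the labels' protocols. The submitters' processing notes name FastQC 0.11.5, STAR, edgeR and the build GRCm38 (mm10), and the sources used here give no settings or strand. FPKM of 15 libraries, rounded to 2 decimals, stood in a single table that the authors deposited. Gene models came from GENCODE M21 (GRCm38).

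From the deposited FPKM, log2(FPKM + 1) was computed here, which understates the change of low genes. Genes with a mean of at least 1 FPKM (11345, with 9351 left out) were tested with limma 3.58.1 in R 4.3.3 (trend, two-sided, all 15 libraries, no covariate), and a Benjamini-Hochberg adjusted p under 0.05 over all of them was a call. For single genes and the ratio, exact permutation tests (two-sided) were run as well. The fit was tested on simulated data. Depth came from the steps between low values: in genes of at most 250 nucleotides at least 99.5% of values were whole reads within 0.1 reads, and at least 97.4% in longer genes, up to 500 nucleotides, that were not used to find it.

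Columns were assigned by title, and the letters in the library names then coincide with the groups. Members and lists were chosen with earlier results of these data known. Called genes of each pathway list were named; cell type markers and uncalled genes were picked after their values were seen. Some single genes are not reported here. Alternatives were other filters, pseudocounts, normalizations and sets of samples, sex or replicate number as a term, the grouping by descriptions, and each library left out.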

Additional observations from a re-analysis of the deposited data

Results flagged for a closer look

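Thbs1 in young control 3 stood far from the other young controls, at 13.4 FPKM against 0.70 to 3.95 FPKM. The gap to the next library was 0.744 of the range of the group, above Dixon's critical value of 0.71 for 5 samples. The levels of Vwf, Selp, Itga2b, Itgb3 and Thbs1 and the ratio of Itga2b to Itgb3 were examined in this way in each of the 3 groups, and chance alone passes this limit in about 1 of 20 groups of normally distributed values. The rule was applied to FPKM and not to log2(FPKM + 1), where young control 3 was at 3.846 and the others at 0.7655 to 2.307. Male and female libraries also differed in Thbs1, so that rate need not hold here.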

How the results depend on the processing

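Outside the grouping by sample descriptions, 208 of 236 results on the 4 genes kept direction and side of the threshold, and 0 reversed. This count includes differences that had not passed at first and only stayed so, and the fits share most of their libraries. The call of Itga2b in aged against young controls was lost in 12 of its alternatives and kept in 7. Grouped by the descriptions, aged against young controls gave -0.84 for Vwf, -0.79 for Selp, -0.93 for Itga2b, -0.85 for Itgb3 and -0.08 for the log2 ratio (exact permutation p = 0.746), and limma called 0 genes (642 at an unadjusted p under 0.05). The knockout label against aged controls then gave 0.66, 1.51, -0.04, 1.06 and -1.10 (exact permutation p = 0.0476) with 0 genes called (731 unadjusted), and against young controls -0.17 for Vwf and 0.72 for Selp with 15 called. All values so far therefore rest on the titles. The cause was not tested for any change in this section.

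Genes called numbered 501 for aged against young controls, 176 for the knockout label against aged controls and 185 against young controls. With a mean of at least 5 FPKM, which leaves fewer genes, they were 265, 113 and 120, with only the 2 groups compared 1011 and 77 in the first and second comparison, and with sex as a covariate 429 in the third. With 1 library left out they ranged from 311 (without aged control 3) to 943 (without aged control 5), from 95 (without aged control 1) to 229, and from 98 (without young control 1 or 5) to 676 (without knockout-label library 4).

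The rise of Itga2b in aged controls was 1.01 without the filter (limma adjusted p = 0.0779), 0.91 after quantile normalization (0.0509) and 0.87 to 1.26 with 1 library left out. With only the 2 groups compared, the knockout label against aged controls gave -1.21 for Vwf and -1.04 for Itgb3, both with an adjusted p above the threshold, as was 1.23 for Selp against young controls. Without the filter Selp in that comparison was also 1.23. Itgb3 against young controls passed after quantile normalization (0.89), median-centring (0.93), with sex as a covariate (0.82) and without knockout-label libraries 2 and 5 (1.21), as did Vwf without them (1.07). With 1 library left out, the knockout label against aged controls gave -1.26 to -0.87 for Itgb3 and -0.99 to -0.56 for the log2 ratio, and against young controls 1.04 to 1.43 for Selp and 0.6 to 0.99 for Itgb3.

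Replicate numbers gave no clear pairing of the libraries: deviations of libraries with the same number correlated at -0.46 to 0.53, over 0.1 in 6 of 15 pairs, and 8 of 30 correlated best with their own number. In every group numbers 1 and 2 were named male and 4 and 5 female, so this check cannot separate pairing from sex. With a replicate block Itga2b in aged against young controls had the same 1.01 with a limma adjusted p of 0.0516. The block changed no other call on the 4 genes, and the counts of called genes were 499, 152 and 158.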
